A study of Mus musculus with 6 samples.

Results

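Translation factors are the proteins that start, extend and end the synthesis of a polypeptide on the cytosolic ribosome. Their genes were picked by symbol, from rows of the deposited array table that carried exactly 1 gene symbol: the initiation factors Eif1 to Eif6 and their named partners, the elongation factors Eef1 and Eef2 with their kinase and methyltransferases, and the release factors Etf1, Gspt1 and Gspt2. The eIF2 kinases Eif2ak1 to Eif2ak4 were kept out of the set. This gave 48 genes, each with 1 row, of 14860 genes measured on rows with 1 symbol. Eef1a1, Eef1g, Eif3j1, Eif4a2, Eif4ebp1, Eif4ebp3, Eif5a and Eif6 share a row with other genes, and so were not analysed here. Nor were Eif2s1, Eif4a1 and Eif4g1, for which no row with 1 symbol was used.

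The arrays came from the tibialis anterior, a fast muscle of the lower leg, of outbred ICR mice aged 16 weeks; the labels name no allele and no drug or injury. Muscle sections were stained for acetylcholinesterase, the enzyme concentrated at neuromuscular junctions (NMJs), and 9973 junctions were cut out by laser; an equal area of the same fibres away from junctions was the second group. Each group had 3 Affymetrix exon arrays, called NMJ and non-NMJ here. A captured area holds every cell in it, so nuclei of Schwann cells and fibroblasts next to the fibre were sampled with those of the fibre. The labels used here do not say how many animals stand behind an array or whether arrays share animals, so the p-values measure only the spread between these arrays.

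In initiation, eIF2 carries the initiator tRNA to the small ribosomal subunit, eIF3 holds that subunit ready, and the eIF4 proteins bind the 5′ cap of the mRNA and bring the mRNA to that subunit. Phosphorylation of eIF2 stops its recharging by the exchange factor eIF2B and is the common brake on initiation under stress, while the kinase mTOR acts on the cap-binding step. In elongation, eEF1A brings aminoacyl-tRNA and eEF2 moves the ribosome by a codon; in skeletal muscle Eef1a2 is the adult form of eEF1A. Muscle mass is set in large part by the rate of these steps, and the myonuclei under the nerve terminal are known to express a set of genes of their own.

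All values are log2 expression values, and differences are NMJ minus non-NMJ with the standard error (SE) of the limma fit, n = 3 arrays per region. A gene was called where its adjusted p over all 23332 rows was under 0.05. Array medians were 4.49 to 4.53 for NMJ and 4.37 to 4.38 for non-NMJ arrays, and 44 of the 48 genes lay above the median of every array. The others were Eif4b, Eif5a2, Eef1aknmt and Gspt2, whose level over background is unknown. Values on different rows cannot be set against each other as levels, since probes differ in their response.

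Translation factor genes did not move as a block. Of 48 genes, 12 were lower and 5 higher in NMJ regions, and 31 were not called. Differences of the called genes ran in size from 0.29 to 1.04, and the largest was a fold of 2.05. The median difference over the 48 genes was -0.05, against -0.01 over all rows. The share called lower was 25%, where 8.63% of all rows were called lower. The share called higher was 10.4%, where 14.4% of all rows were called higher. Bright rows are called more often, and 46 of the 48 genes lay in the brighter 50% of rows, where 14.4% were called lower and 23.7% higher. The regions did not overlap, with all NMJ arrays below, in 17 genes (35.4%, against 18.2% of all rows), and with all NMJ arrays above in 14 (29.2%, against 22.8%). These shares of non-overlap were taken over all rows and not over the brighter 50%, so they are not matched for brightness. After median centring of the arrays, which shifted the overall median from -0.01 to -0.15, 17 genes were lower and 3 higher, and after quantile normalization 18 were lower and 7 higher. Calls over all rows shifted too, from 5364 to 6330 after median centring and 6172 after quantile normalization. Higher calls made up 62.5% of them as deposited, 41.7% after median centring and 46.6% after quantile normalization.

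**Figure D1:**
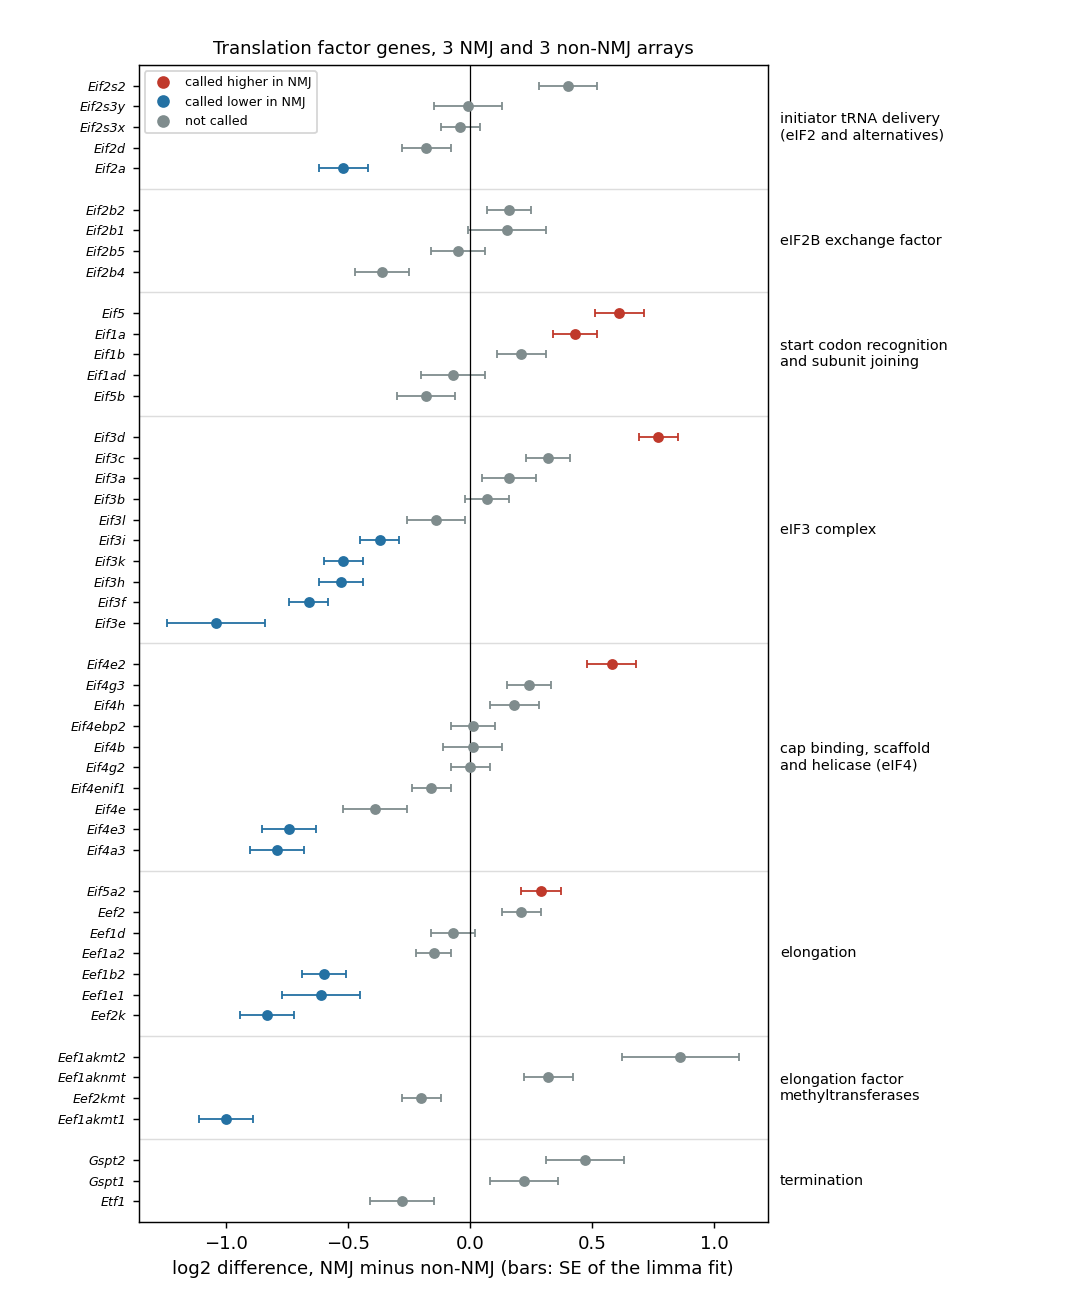
Log2 difference, NMJ minus non-NMJ, of each of the 48 genes, grouped by role (points: difference of the means of 3 arrays; bars: SE of the limma fit; red, called higher; blue, called lower; grey, not called). Called genes lie on both sides of 0 within the eIF3 complex and among the eIF4 genes.

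Of the 17 called genes, 8 lower ones (Eef1akmt1, Eef2k, Eif4a3, Eif4e3, Eif3f, Eef1b2, Eif3h and Eif3k) and 3 higher ones (Eif3d, Eif5 and Eif4e2) were also called in each of the 6 fits that omitted 1 array. The other 6 lost their call in at least 1 such fit, as given beside each. Within each region the array numbered 3 was the lowest for most of the genes: non-NMJ replicate 3 in 37 of 48 (77.1%, against 57.8% of the brighter 50% of rows) and NMJ replicate 3 in 38 (79.2%, against 60.9%). The part of that shift in the results was not tested, but without non-NMJ replicate 3 there were 4 higher and 12 lower genes, and without NMJ replicate 3 there were 4 and 9.

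**Figure D2:**
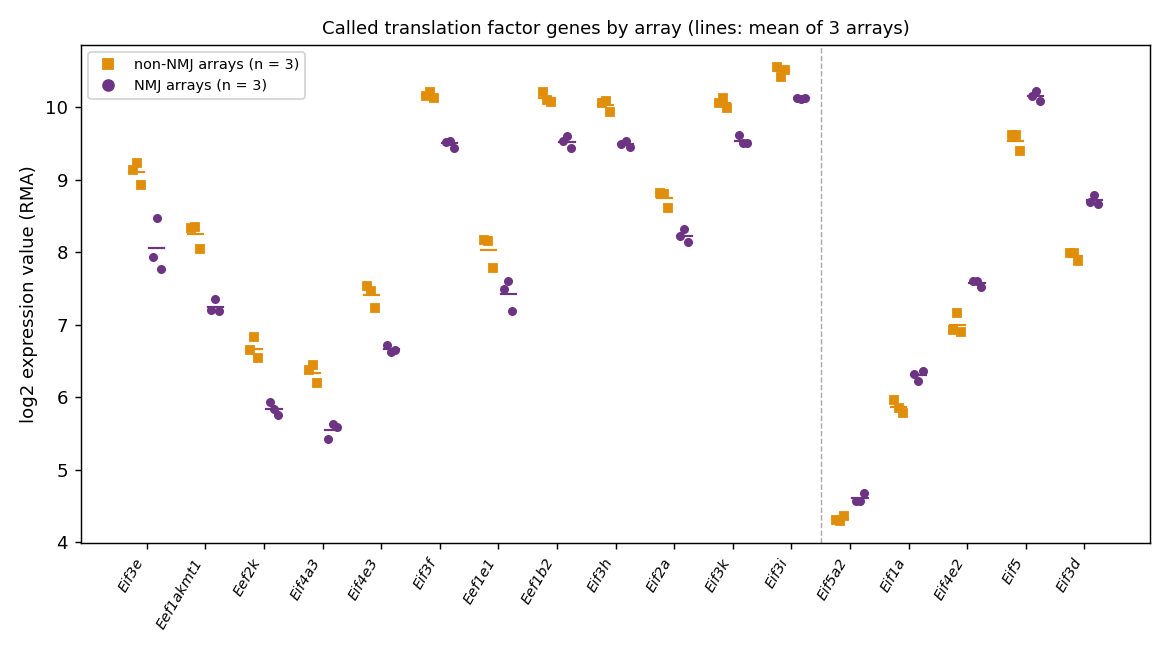
Log2 expression value on each array for the 17 called genes (squares, non-NMJ; circles, NMJ; short lines, mean of 3 arrays), ordered by their difference. The 12 lower genes stand left of the dashed line and the 5 higher genes right of it, and in each of the 17 the regions do not overlap.

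In the eIF3 complex, the largest initiation factor, 5 of 10 measured subunit genes were lower, 1 was higher and 4 were not called, with a median difference of -0.26. In the brighter 50% of rows 14.4% were called lower and 23.7% higher. Eif3e, a subunit of the structural core, read 7.94, 8.47 and 7.77 on NMJ arrays and 9.14, 9.23 and 8.93 on non-NMJ arrays. All NMJ arrays lay below all non-NMJ arrays, with NMJ replicate 2 nearest to them. Eif3e was 2.05-fold lower (difference -1.04 ± 0.20; limma adjusted p = 0.0137), and its adjusted p was 0.0549 without NMJ replicate 1. Eif3f, a core subunit that the muscle ubiquitin ligase Fbxo32 is known to target during atrophy, read 9.52, 9.54 and 9.44 on NMJ arrays and 10.16, 10.21 and 10.12 on non-NMJ arrays. The spread within each region was small beside the gap, and Eif3f fell by 0.66 ± 0.08 (1.58-fold; limma adjusted p = 0.00234).

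Eif3h, which pairs with Eif3f in the core, read 9.49, 9.54 and 9.45 on NMJ arrays and 10.06, 10.09 and 9.93 on non-NMJ arrays. It was 1.45-fold lower (-0.53 ± 0.09; limma adjusted p = 0.00717), with no overlap. Eif3k, a small core subunit, read 9.61, 9.51 and 9.50 on NMJ arrays against 10.06, 10.13 and 9.99. Eif3k was likewise lower on every NMJ array, by 1.44-fold (-0.52 ± 0.08; limma adjusted p = 0.00738). Eif3i, a peripheral subunit shaped as a propeller of WD repeats, read 10.13, 10.11 and 10.13 on NMJ arrays against 10.55, 10.42 and 10.51. Its difference of -0.37 ± 0.08 (limma adjusted p = 0.0193) lost its call without NMJ replicate 1 (0.0780), 2 (0.0744) or 3 (0.0596) or non-NMJ replicate 1 (0.0589).

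Eif3d, a peripheral subunit that can itself bind the cap of some mRNAs and that attaches to the core through Eif3e, moved the other way. It read 8.70, 8.79 and 8.67 on NMJ arrays and 7.99, 7.99 and 7.88 on non-NMJ arrays. Every NMJ array was higher, by 1.70-fold on average (0.77 ± 0.08; limma adjusted p = 0.00163, the smallest among the 48 genes). Eif3c, a core subunit, had a difference of 0.32 ± 0.09 with no overlap (limma adjusted p = 0.05, not under the threshold), and passed after quantile normalization (0.33; 0.0185). The scaffold subunits Eif3a and Eif3b had differences of 0.16 and 0.07, and Eif3l one of -0.14, all with overlapping regions. The sign for Eif3b turned to -0.02 after quantile normalization and -0.07 after median centring. Protein amounts were not measured.

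**Figure D3:**
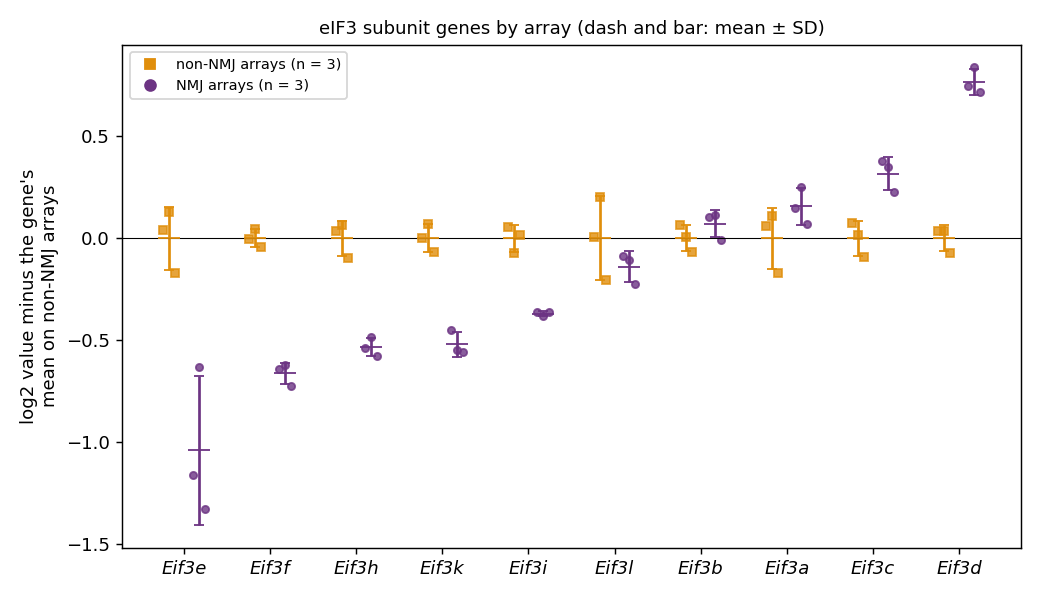
Log2 value of each eIF3 subunit gene on each array, minus that gene's mean on the non-NMJ arrays (squares, non-NMJ; circles, NMJ; dashes and bars, mean ± SD, n = 3). NMJ arrays lie below the non-NMJ arrays for Eif3e, Eif3f, Eif3h, Eif3k and Eif3i and above them for Eif3c and Eif3d.

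The proximal promoters of 4 of the called genes are shown because genes on both sides of 0 hold the same short motif. The N-box, with the core CCGGAA, is known from mouse promoters of acetylcholine receptor subunit genes, where ETS factors bind it at synaptic nuclei; the E-box CACGTG is bound by factors such as Myc. Both were searched on both strands in windows from 250 bases before to 50 after the gene start (RefSeq, GRCm38.p6). They do not overlap each other in the 4 windows. Of the 48 genes, 38 had a window; 18 of these (47.4%) held CCGGAA, against 2807 of 11869 tested genes (23.6%), and 10 (26.3%) held CACGTG, against 1205 (10.2%). Among called genes with a window, CCGGAA was in 3 of 4 higher ones (Eif3d, Eif4e2 and Eif5a2) and 2 of 7 lower ones (Eif3f and Eef1b2); CACGTG was in 1 higher gene (Eif5a2) and 3 lower ones (Eif3f, Eef2k and Eif3k). A match is a description of these letters, not a binding site. Each line gives the 120 bases before and the 30 bases from the gene start, 5′ to 3′ on the strand of the gene, with either motif (or its reverse complement) in capitals.
Eif3d (chr15:77970795-77970944, minus strand): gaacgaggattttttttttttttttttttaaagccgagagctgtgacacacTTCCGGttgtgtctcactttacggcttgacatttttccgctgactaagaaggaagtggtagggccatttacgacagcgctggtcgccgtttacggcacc
Eif4e2 (chr1:87213791-87213940, plus strand): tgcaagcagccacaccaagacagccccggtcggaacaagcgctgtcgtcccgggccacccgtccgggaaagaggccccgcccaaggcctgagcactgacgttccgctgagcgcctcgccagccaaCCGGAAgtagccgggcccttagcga
Eif3f (chr7:108934295-108934444, plus strand): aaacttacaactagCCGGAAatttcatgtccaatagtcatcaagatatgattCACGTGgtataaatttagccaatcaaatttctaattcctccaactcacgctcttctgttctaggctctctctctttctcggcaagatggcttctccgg
Eef1b2 (chr1:63176711-63176860, plus strand): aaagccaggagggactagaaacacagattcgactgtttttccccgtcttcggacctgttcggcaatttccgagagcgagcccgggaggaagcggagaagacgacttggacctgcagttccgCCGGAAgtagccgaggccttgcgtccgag
Counted from 1 at the gene start, CCGGAA or its complement begins at -69 in Eif3d, at 6 in Eif4e2, at -106 in Eif3f and at 2 in Eef1b2, and the E-box of Eif3f begins at -68.

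Among the 10 eIF4 genes, which act at the cap, 2 were lower (20.0%) and 1 was higher (10.0%), where 14.4% of the brighter rows were called lower and 23.7% higher. The departure from those shares was not tested. The 3 measured cap-binding genes did not move together. Eif4e2, which binds the cap without recruiting the scaffold and so represses chosen mRNAs, read 7.61, 7.60 and 7.52 on NMJ arrays and 6.93, 7.17 and 6.90 on non-NMJ arrays. All NMJ arrays were above all non-NMJ arrays, by 1.49-fold on average (0.58 ± 0.10; limma adjusted p = 0.0107). Eif4e3, a further member of the cap-binding family, read 6.72, 6.62 and 6.65 on NMJ arrays against 7.53, 7.46 and 7.23. It was 1.67-fold lower (-0.74 ± 0.11; limma adjusted p = 0.00467), again with no overlap. Eif4e, the main cap-binding protein, read 8.43, 8.68 and 8.38 against 9.03, 8.94 and 8.69. Its NMJ arrays lay below its non-NMJ arrays by a narrow margin, and the difference of -0.39 ± 0.13 was not called (limma adjusted p = 0.0880). Eif4e passed after quantile normalization (-0.42; adjusted p = 0.0232) and median centring (-0.53; 0.0272).

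The difference between Eif4e and Eif4e2 within an array was also compared, as 1 of 3 measured pairs of related factors out of 11 listed. Eif4e minus Eif4e2 was 0.82, 1.07 and 0.86 on NMJ arrays and 2.10, 1.77 and 1.79 on non-NMJ arrays. The regions did not overlap, with a shift of -0.97 (exact two-sided permutation p = 0.1, the smallest that 3 against 3 arrays allow; adjusted over the 3 pairs, 0.3). Gspt1 minus Gspt2 shifted by -0.25 (exact permutation p = 0.3, adjusted 0.45) and Eif2s3x minus Eif2s3y by -0.03 (exact permutation p = 0.9, adjusted 0.9), both with overlap. The sign of the last became positive (0.03) after quantile normalization.

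Eif4a3, a DEAD-box RNA helicase related to the eIF4A of the cap complex but best known from the exon junction complex on spliced mRNA, read 5.42, 5.64 and 5.59 on NMJ arrays and 6.38, 6.44 and 6.20 on non-NMJ arrays. It was lower on every NMJ array, by 1.73-fold (-0.79 ± 0.11; limma adjusted p = 0.00408). Eif4g2, a scaffold relative that lacks the binding site for Eif4e, read 11.12, 11.20 and 11.17 against 11.16, 11.21 and 11.12. Those ranges overlapped almost fully, and the limma adjusted p was 0.992 with an SE of 0.08. Eif4g3, a full scaffold, read 9.42, 9.41 and 9.26 against 9.19, 9.09 and 9.10. Its regions did not overlap, but the difference of 0.24 ± 0.09 was not called (limma adjusted p = 0.108), and passed with an intensity trend and robust prior (0.0439) and, barely, after quantile normalization (0.25). Eif4ebp2, a binding protein that blocks Eif4e until mTOR phosphorylates it, read 10.29, 10.33 and 10.17 against 10.32, 10.19 and 10.26. The arrays of the regions were interleaved (0.01 ± 0.09; limma adjusted p = 0.977). The helicase cofactor Eif4h and the transporter of Eif4e, Eif4enif1, had differences of 0.18 and -0.16 that were not called. Eif4enif1 passed after quantile normalization (-0.31; 0.0319) and median centring (-0.30; 0.0397). The row of Eif4b, also a helicase cofactor, read only 1.71 to 2.07 and says nothing about that gene.

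At start codon recognition and subunit joining, 2 of 5 genes were higher and none was called lower by limma. Of the brighter rows, 23.7% were called higher and 14.4% lower, and the departure of so few genes from those shares was not tested. Eif5, which triggers GTP hydrolysis by eIF2 once the start codon is found, read 10.15, 10.23 and 10.08 on NMJ arrays and 9.61, 9.61 and 9.40 on non-NMJ arrays. Each NMJ array was above each non-NMJ array, and Eif5 was 1.53-fold higher (0.61 ± 0.10; limma adjusted p = 0.00754). Eif1a, which helps the small subunit scan, read 6.32, 6.22 and 6.37 against 5.97, 5.86 and 5.78. The regions were apart, and Eif1a was 1.35-fold higher (0.43 ± 0.09; limma adjusted p = 0.0197). That call was lost without NMJ replicate 1 (0.0806) or 3 (0.0677) or non-NMJ replicate 2 (0.0562), after quantile normalization (0.17; 0.255) and after median centring (0.29; 0.0659). Eif1b, a start-site fidelity factor, Eif1ad, which carries the domain of eIF1A, and Eif5b, the GTPase that joins the subunits, had differences of 0.21, -0.07 and -0.18.

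For initiator tRNA delivery the eIF2 subunit genes were not called, and an alternative carrier was lower. Eif2a, a factor separate from eIF2 that can bring initiator tRNA to certain mRNAs, read 8.22, 8.32 and 8.14 on NMJ arrays and 8.82, 8.81 and 8.61 on non-NMJ arrays. Its regions did not overlap and it was 1.44-fold lower (-0.52 ± 0.10; limma adjusted p = 0.0138), though not without NMJ replicate 1 (0.0582) or 3 (0.0501). Eif2s2, the beta subunit of eIF2, read 9.36, 9.42 and 9.22 against 9.04, 9.02 and 8.75. Although every NMJ array was higher, the difference of 0.40 ± 0.12 was not called (limma adjusted p = 0.0571), and it passed after quantile normalization (0.40; 0.0147). The gamma subunit genes Eif2s3x and Eif2s3y, on the X and Y chromosomes, had differences of -0.04 and -0.01, and Eif2d, another tRNA carrier, one of -0.18, which was -0.43 after quantile normalization and then passed (0.00945).

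None of the 4 measured genes of eIF2B, the factor that recharges eIF2 with GTP, was called by limma. Eif2b5, its catalytic subunit, read 7.20, 7.39 and 7.16 on NMJ arrays and 7.23, 7.45 and 7.21 on non-NMJ arrays. The regions overlapped, with a difference of -0.05 ± 0.11 (limma adjusted p = 0.794). The regulatory subunits Eif2b1 and Eif2b2 had differences of 0.15 and 0.16. Eif2b4 had one of -0.36 ± 0.11 with no overlap (limma adjusted p = 0.0560), which passed after quantile normalization (-0.56; 0.00285) and median centring (-0.50; 0.0138).

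Among the 7 elongation genes, 3 were lower (42.9%) and 1 higher (14.3%), while the muscle form of eEF1A and the translocase were not called. Shares for the brighter rows were 14.4% lower and 23.7% higher, and the departure from them was not tested. Eef2k, the calcium-dependent kinase that switches eEF2 off, read 5.93, 5.84 and 5.76 on NMJ arrays and 6.65, 6.83 and 6.54 on non-NMJ arrays. It was 1.78-fold lower (-0.83 ± 0.11; limma adjusted p = 0.00302), with every NMJ array below. Its substrate Eef2 read 11.84, 11.83 and 11.81 against 11.65, 11.54 and 11.66. All NMJ arrays of Eef2 were above, but the difference of 0.21 ± 0.08 was not called (limma adjusted p = 0.118); it was 0.31 (0.0283) after quantile normalization and 0.07 (0.529) after median centring.

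Eef1b2, a subunit of the factor that reloads eEF1A with GTP, read 9.54, 9.60 and 9.44 on NMJ arrays and 10.21, 10.10 and 10.07 on non-NMJ arrays. It was lower on all NMJ arrays, by 1.52-fold (-0.60 ± 0.09; limma adjusted p = 0.00533). Eef1d, another subunit of the same factor, had a difference of -0.07 ± 0.09, which was -0.34 after quantile normalization and then passed (0.0453). Eef1a2 read 11.40, 11.37 and 11.35 against 11.51, 11.50 and 11.55. The regions did not overlap, yet the gap was small (-0.15 ± 0.07; limma adjusted p = 0.218). After median centring Eef1a2 was at -0.29 (0.0328) and after quantile normalization at -0.01 (0.925).

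Eef1e1, which despite its name is a scaffold part of the complex of aminoacyl-tRNA synthetases, read 7.50, 7.60 and 7.19 on NMJ arrays and 8.17, 8.16 and 7.78 on non-NMJ arrays. Replicate 3 was the lowest in both regions, and the regions were apart by a difference of -0.61 ± 0.16 (limma adjusted p = 0.0428). This call held without non-NMJ replicate 3 (0.0268) and was lost without NMJ replicate 1 (0.101), 2 (0.0653) or 3 (0.108) or non-NMJ replicate 1 (0.114) or 2 (0.113). Eif5a2, a form of eIF5A, which helps ribosomes through difficult peptide bonds, read 4.57, 4.57 and 4.68 against 4.31, 4.30 and 4.36. Its difference of 0.29 ± 0.08 just passed (limma adjusted p = 0.0485), and it did not pass without any single array (0.0737 to 0.137), after quantile normalization (0.15; 0.207) or after median centring (0.15; 0.224).

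The methyltransferases that modify elongation factors stood apart from each other. Eef1akmt1, which methylates a lysine of eEF1A, read 7.20, 7.35 and 7.19 on NMJ arrays and 8.34, 8.35 and 8.05 on non-NMJ arrays. The regions were well separated, and Eef1akmt1 was 2.0-fold lower (-1.0 ± 0.11; limma adjusted p = 0.00197). Eef1akmt2, which methylates another lysine of eEF1A, read 6.16, 6.30 and 5.67 against 5.41, 5.39 and 4.75. The array numbered 3 was far below the others in each region, and the difference of 0.86 ± 0.24 was not called (limma adjusted p = 0.0515). Eef1akmt2 passed without NMJ replicate 3 (0.0415), with array weights (0.0333) and with an intensity trend (0.0449). Eef1aknmt, which methylates the N terminus and a lysine of eEF1A, had a difference of 0.32 and Eef2kmt, which methylates eEF2, one of -0.20. Neither was called, although the regions did not overlap in either gene. Eef2kmt passed after quantile normalization (-0.42; 0.0268) and median centring (-0.34; 0.0264).

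None of the 3 termination genes was called by limma. Etf1, which reads the stop codon, read 8.92, 9.13 and 8.83 on NMJ arrays and 9.31, 9.38 and 9.04 on non-NMJ arrays. The regions overlapped at their edges (-0.28 ± 0.13; limma adjusted p = 0.193). Gspt1, the GTPase that works with it, read 8.61, 8.76 and 8.46 against 8.53, 8.50 and 8.16. Those ranges overlapped too (0.22 ± 0.14; limma adjusted p = 0.333). Gspt2, a close relative of Gspt1, read 3.45, 3.08 and 3.28 against 3.06, 2.73 and 2.61, below the array medians. Gspt2 had a difference of 0.47 ± 0.16 with barely separate regions (limma adjusted p = 0.0863), and passed without non-NMJ replicate 1 (0.0433).

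Other genes that act on translation were listed by function, and 45 of 53 were measured: 11 were higher (24.4%), 6 lower (13.3%) and 28 not called. These shares lie near those of the brighter 50% of rows (23.7% and 14.4%). Their balance turned with the scaling, to 9 higher and 16 lower after quantile normalization and 6 higher and 13 lower after median centring. Of 5 genes around the phosphorylation of eIF2, 4 were higher. Ppp1r15a, the inducible subunit of the phosphatase that restores eIF2, read 7.48, 7.36 and 7.22 on NMJ arrays and 6.23, 6.29 and 6.25 on non-NMJ arrays. It was 2.14-fold higher (1.10 ± 0.10; limma adjusted p = 7.41e-04), more than any of the 5 called higher factors. Eif2ak3, the kinase of eIF2 that senses unfolded protein in the endoplasmic reticulum, was 1.53-fold higher (0.62 ± 0.10; limma adjusted p = 0.00624). Eif2ak4, the kinase that senses uncharged tRNA, had a difference of 0.38 ± 0.10 (limma adjusted p = 0.0347) and lost its call without NMJ replicate 1 (0.129), 2 (0.110) or 3 (0.0671) or non-NMJ replicate 1 (0.0943) or 3 (0.0829). It was lost as well after quantile normalization (0.28; 0.0643) and median centring (0.24; 0.0991), each of which left 3 of the 5 genes higher. Atf4, the transcription factor made when eIF2 is phosphorylated, was 1.34-fold higher (0.42 ± 0.08; limma adjusted p = 0.0150), but not without NMJ replicate 1 (0.0699) or 2 (0.0637). The constitutive phosphatase subunit Ppp1r15b had a difference of 0.24 ± 0.16 that was not called and was -0.01 after quantile normalization.

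Of 12 measured genes of the mTOR complex 1 pathway, 3 were higher and 9 not called. Mtor itself read 7.21, 7.22 and 7.14 on NMJ arrays and 7.27, 7.22 and 7.12 on non-NMJ arrays. The regions coincided (-0.01 ± 0.08; limma adjusted p = 0.923). Rptor, the subunit that brings substrates to mTOR, was 1.67-fold higher (0.74 ± 0.10; limma adjusted p = 0.00389), and Sesn1, a leucine-binding inhibitor of the pathway, was 1.59-fold higher (0.67 ± 0.10; limma adjusted p = 0.00460). The call of Mlst8, a further subunit (0.40 ± 0.09; limma adjusted p = 0.0215), was lost without NMJ replicate 1 (0.0834), 2 (0.0803) or 3 (0.0608) or non-NMJ replicate 2 (0.0531). It was also lost after quantile normalization (0.14; 0.216) and median centring (0.26; 0.0674). The other genes of the pathway were not called and lay on both sides of 0. Rheb, the GTPase that activates mTOR, had a difference of -0.35. Tsc1 and Tsc2, which restrain Rheb, had -0.25 and -0.15, and the inhibitor Akt1s1 -0.26, with no overlap except for Tsc2. Deptor and Ddit4 had differences of 0.53 and 0.47 with all NMJ arrays above (limma adjusted p = 0.0566 and 0.14). Larp1 at -0.24 and Rps6kb2 at 0.01 overlapped. Quantile normalization left 2 genes of the pathway higher and 3 lower, namely Rheb (adjusted p = 0.0272), Tsc1 (0.0119) and Tsc2 (0.0300). Median centring also left 2 higher and 3 lower, namely Rheb (0.0196), Tsc1 (0.0174) and Akt1s1 (0.0245). Over all rows, higher calls made up 62.5% of calls as deposited, 46.6% after quantile normalization and 41.7% after median centring.

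Of 4 measured genes for the poly(A)-binding protein and its partners, 2 were lower, 1 was higher and 1 was not called. Among the brighter rows, 14.4% were called lower and 23.7% higher, and the departure from those shares was not tested. Paip2b and Paip1, which respectively block and help the action of that protein, were 1.98-fold lower (-0.99 ± 0.11; limma adjusted p = 0.00169) and 1.76-fold lower (-0.81 ± 0.11; limma adjusted p = 0.00376), while Paip2 at -0.18 was not called. Pabpc1, the binding protein, had a difference of 0.32 ± 0.07 (limma adjusted p = 0.0269) that did not pass without any single array (0.0543 to 0.114) or after median centring (0.18; 0.117). Cyfip2, which represses through the cap complex, was the only 1 of 4 cap regulators called, at 0.61 ± 0.11 (limma adjusted p = 0.00956). The rows of Cyfip2 and Eif2ak4 lay below the median of every array. Of 10 genes for ribosome recycling, helicases and other steps, 2 were higher (20.0%, against 23.7% of the brighter rows). They were Abce1, which splits ribosomes, and the helicase Ddx3x (limma adjusted p = 0.0432 and 0.0284). Abce1 kept its call without non-NMJ replicate 2 (0.0414) but without no other single array (0.0673 to 0.136), and Ddx3x lost its call without each (0.0521 to 0.0978). After median centring neither passed (0.0936 and 0.0698). Hbs1l, Dhps and Dohh of the same list were not called as deposited. All 3 were lower after quantile normalization (limma adjusted p = 0.0224, 0.0044 and 0.00458) and after median centring (0.0275, 0.0365 and 0.0264).

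The factors of mitochondrial translation, a separate machinery, had 4 of 10 genes lower and 0 higher by limma, where 14.4% of the brighter 50% of rows were lower. A difference below 0 was found in 9, with a median of -0.46. These include Tufm (-0.66, not called), whose row read only 1.82 to 3.35, below the median of every array. After quantile normalization 7 of the 10 were lower, and after median centring 4. The share of 14.4% is from the values as deposited and does not match those scalings. With quantile normalization, calls over all rows rose from 5364 to 6172 while higher calls fell from 3351 to 2878. Guf1, an elongation factor relative of mitochondria, was 1.62-fold lower (-0.70 ± 0.11; limma adjusted p = 0.00566) and was called in all 6 fits that omitted an array. Tsfm, Gfm2 and Mtrf1l, an exchange factor, a recycling factor and a release factor, fell by 0.50, 0.49 and 0.71 (limma adjusted p = 0.0234, 0.0185 and 0.0396). Tsfm passed only without NMJ replicate 3 (0.0412), Gfm2 only without NMJ replicate 2 (0.0409) or non-NMJ replicate 3 (0.0216), and Mtrf1l only without NMJ replicate 2 (0.0382) or non-NMJ replicate 3 (0.0287).

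**Figure D4:**
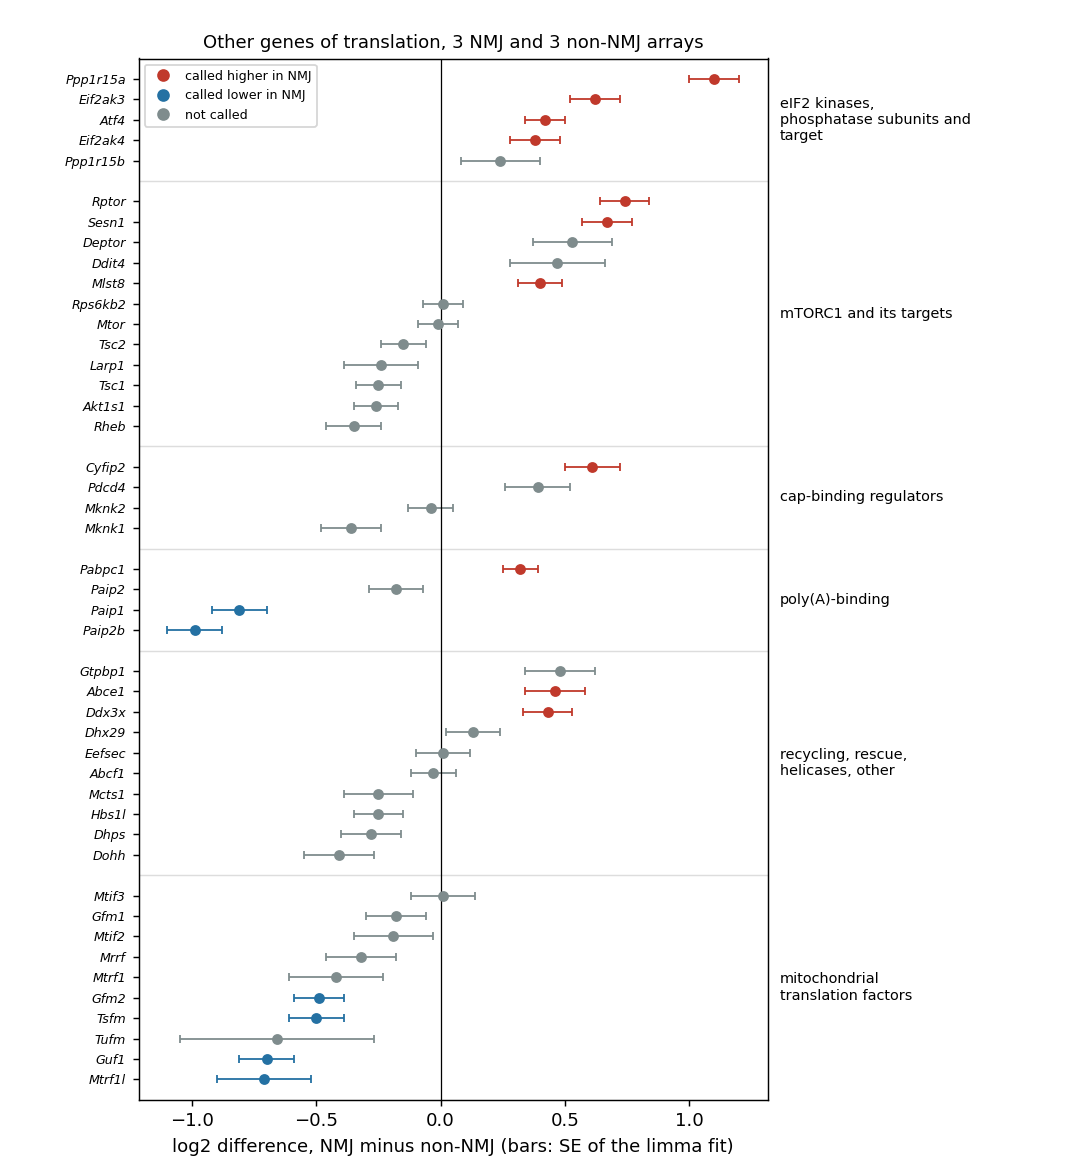
Log2 difference, NMJ minus non-NMJ, of 45 other genes of translation by function (points: difference of the means of 3 arrays; bars: SE of the limma fit; colours as called higher, lower or not called). Genes around eIF2 phosphorylation lie above 0 in this scaling (Ppp1r15b was at -0.01 after quantile normalization) and most mitochondrial factors below it.

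Markers of several cell types differed between the same regions, so cell makeup and region cannot be told apart here. Measured Schwann cell markers were higher in 6 of 6 cases, with a summed linear level (the sum of 2 raised to each log2 value) of 1982 to 2081 on NMJ and 258 to 300 on non-NMJ arrays, and fibroblast markers in 6 of 7 (8739 to 9165 against 2690 to 2892). Pericyte and smooth muscle markers were lower in 5 of 6 (1043 to 1119 against 2009 to 2287), and endothelial markers in 5 of 8 (730 to 803 against 961 to 1108). Fast myofibre markers were lower in 7 of 9 (50101 to 51443 against 65606 to 66799), and genes of synaptic myonuclei were higher in 7 of 7 (14513 to 14960 against 343 to 418). Macrophage markers were mixed, 2 of 7 higher and 1 lower (446 to 510 against 341 to 393), and 2 of 5 satellite cell markers were higher (288 to 351 against 180 to 224). No array value is 0, and Ptprc was the only 1 of these markers below the median of every array. Fewer cells of a type and less RNA per cell cannot be told apart in such samples, and the part of the cell makeup in the differences of the translation factor genes was not tested.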

How the data were processed

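Per the submitters' processing notes, the authors made the deposited log2 values with RMA (background correction, normalization and probe summary) in the Affymetrix programs Transcriptome Analysis Console and Expression Console. Neither their versions nor a genome build is stated in the sources used here. That the scale is log2 follows from the range of the values. RNA was amplified from 10 ng per sample, per the labels' protocols. No detection calls were used. Precision is limited by the number of arrays. All 23332 rows were fitted with limma 3.58.1 in R 4.3.3 (lmFit, eBayes, both directions, no replicate term), with Benjamini-Hochberg adjustment over all rows; the step was tested on simulated data. Symbols came from the platform table; a gene with several rows took the brightest. Members, gene lists and naming rule were chosen with earlier results of these data known. Every array value is given for called genes, the 4 largest differences not called, and fixed genes; of each partner list, up to 4 called genes with the smallest p are named, beside fixed genes, and further genes were picked after their values were seen. Pairs were tested in scipy 1.17.1. Promoters outside chromosome 18 came from RefSeq; the 4 printed were chosen after their values were seen. Alternatives were the replicate block, other scalings, filters, variance models, array weights and omission of each array.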

Additional observations from a re-analysis of the deposited data

How the results depend on the processing

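Of 669 refits of single translation factor genes, 591 kept their call or stayed not called, 51 gained and 27 lost a call, and 0 turned a called direction. The 591 include genes not called whose sign turned, such as Eif3b (0.07, and -0.07 after median centring). The count of higher genes, 5, became 9 with array weights, 9 with an intensity trend and robust prior, 9 without the dimmest 25% of rows, 10 without the dimmest 50%, 10 among rows with 1 symbol and 3 after median centring; the count of lower genes, 12, ran from 13 to 17 in these fits and was 18 after quantile normalization. Higher calls made up 62.5% of calls over all rows (quantile normalization, 46.6%; median centring, 41.7%) and 29.4% of those of the translation factor genes (28% and 15%). Omission of single arrays left 3 to 5 higher and 8 to 12 lower genes, a median difference of -0.09 to -0.01, 3373 to 4706 called rows in place of 5364, and 8 to 14 called partner genes in place of 17, with 8 without NMJ replicate 1. Omission moved the pair Eif4e minus Eif4e2 between -1.05 and -0.86, Gspt1 minus Gspt2 between -0.42 and -0.16, and Eif2s3x minus Eif2s3y between -0.09 and 0.08; the last was 0.03 after quantile normalization. The lowest-mean row gave the same values, since each gene had 1 row. The causes of these changes were not tested. In simulated data of the same 23332 rows the fit recovered 74.6% of differences of 1.0 and 4.5% of differences of 0.5 on the log2 scale. Only 67 rows of each size were changed there, against 5364 rows called here, so the adjustment was stricter in the simulation. These shares are therefore not the recovery of the fit reported here, and differences not called here may still be real.

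The replicate numbers are not said to mark a shared animal, so the main fit did not take arrays of the same number as pairs. Over all rows, arrays with the same number deviated together by r = 0.05, 0.04 and 0.18, and NMJ replicate 2 correlated best with non-NMJ replicate 1 (0.11). Such low values cannot settle whether arrays were paired, and the array numbered 3 was the lowest in both regions for most of the genes. With the replicate block there were 6 higher and 13 lower genes, 5064 called rows, 17 called partner genes and a median of -0.05. Among the translation factor genes, Eef1akmt2 (limma adjusted p = 0.0103), Eif2s2 (0.0427) and Eif2b4 (0.0451) gained a call, and Eif5a2 lost its call (0.0727). Among the partners, Eif2ak4 (0.0563), Pabpc1 (0.0579) and Mtrf1l (0.0595) lost a call, and Rheb (0.0453), Gtpbp1 (0.039) and Dohh (0.0332) gained one. Eif4e minus Eif4e2 stayed at -0.97, with an unadjusted limma p of 0.00018. That fit shared its variance over only 3 pairs and treated arrays of the same number as pairs. Since neither is established, this p cannot be relied on.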
